A study of Mus musculus with 22 samples.

Results

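The interferon-stimulated genes described here are Isg15, Ifit1, Ifit3, Irf7, Oasl2, Rsad2, Bst2, Ifi44, Usp18 and Cxcl10. They were taken by symbol as 10 of the 52526 distinct gene symbols listed for each mouse, and all 10 passed the filter on low values (above the floor of the data in at least 5 mice) together with 15128 other genes. RNA was measured in the left mammary gland number 4 of 22 female C57BL/6J mice, aged 7 to 8 weeks, in a 2 x 2 design of activity and liposome. Wheel mice had a running wheel on a hub in the home cage and control mice the hub alone, for 2 weeks before engraftment and until collection. Every mouse was engrafted in that gland with EO771 cells, a mammary cancer cell line of the same strain that carried firefly luciferase, and the tissue was collected 24 hours later. Every mouse also received 2 intravenous injections of liposomes holding either PBS or clodronate, a drug that kills phagocytes that take the liposomes up. The groups were control with PBS liposomes (6 mice), wheel with PBS liposomes (6 mice), control with clodronate liposomes (5 mice) and wheel with clodronate liposomes (5 mice). Each library was made from bulk tissue, in which more cells of a type and more RNA per cell cannot be told apart, and in which RNA of the engrafted cells cannot be told apart from that of the host.

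Type I interferons are secreted proteins that cells release on sensing foreign or misplaced nucleic acid. They bind the receptor made of Ifnar1 and Ifnar2, and the kinases Jak1 and Tyk2 are then activated. A complex that holds Irf9 binds a promoter element, the interferon-stimulated response element, and switches on a large set of genes at once. Immune cells, blood vessels, fibroblasts and tumour cells can all run this programme, and in mammary tumours it is known from both the cancer cells and the cells around them.

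The core of that element, GAAANNGAAA, was searched on both strands in the RefSeq promoter sequences of the GRCm38.p6 build (250 bases before the transcript start and 50 from it). The table held 9 of the 10 members, all except Usp18. The core was present in 6 of 9 member promoters (66.7%) and in 3.44% of all 32851 promoters. In the wider interferon list used further on, 50 of 133 promoters held it (37.6%). The stretches of 90 bases below are shown because they carry these matches, written along the gene from 5′ to 3′ with the matched core in capitals (overlapping matches run together, and a match that begins with TTTC is the same core on the other strand).
Isg15, chr4:156200841-156200930, minus strand: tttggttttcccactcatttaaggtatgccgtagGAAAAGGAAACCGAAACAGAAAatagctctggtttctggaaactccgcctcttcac
Ifit1, chr19:34640754-34640843, plus strand: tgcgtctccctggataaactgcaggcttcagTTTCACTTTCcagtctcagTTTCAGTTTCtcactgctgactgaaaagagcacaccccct
Ifit3, chr19:34583350-34583439, plus strand: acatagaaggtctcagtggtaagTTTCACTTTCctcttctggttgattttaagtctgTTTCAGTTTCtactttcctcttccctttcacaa
Rsad2, chr12:26456523-26456612, minus strand: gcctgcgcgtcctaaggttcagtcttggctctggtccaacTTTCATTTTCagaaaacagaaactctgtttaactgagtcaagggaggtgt
Bst2, chr8:71537550-71537639, minus strand: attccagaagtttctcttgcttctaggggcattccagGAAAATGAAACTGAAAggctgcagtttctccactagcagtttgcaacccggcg
Cxcl10, chr5:92349050-92349139, minus strand: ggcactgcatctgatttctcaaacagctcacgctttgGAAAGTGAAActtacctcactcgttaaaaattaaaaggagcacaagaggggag

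Isg15 held 3 overlapping matches, Ifit1, Ifit3 and Bst2 held 2 each, and Rsad2 and Cxcl10 held 1 each. Irf7, Oasl2 and Ifi44 had no match in this window. With 1 mismatch allowed, 8 of 9 member promoters matched, against 35.4% of all promoters. A second element, TTCNNNGAA, known from genes that respond to interferon gamma, was found in the promoter of Bst2 alone among the members (1 of 9, 11.1%) and in 8.30% of all promoters. These matches describe letters and were not tested as binding sites.

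The libraries held 13256467 to 20484578 reads each (median 16293026), of which 57.4% to 64.6% were assigned to genes. The deposited unit is CPM, reads scaled to a common library total, with every value below 1 raised to 1, so a gene listed at 1 had at most 13 to 20 reads. Libraries were made with QuantSeq, which reads transcripts from their 3′ ends, so reads are not spread along the length of a transcript and levels of different genes can be set side by side without a length correction. Markers of lymphocytes (16 genes such as Cd79a, Cd79b and Cd3e) set 5 mice apart, with a mean log2(CPM + 1) over the list of 4.34 in control PBS mouse 2, 4.52 in wheel PBS mouse 3 and 5.09 to 5.69 in wheel clodronate mice 3, 4 and 5. The other 17 mice lay between 1.00 and 1.24. The summed level of the list ran from 17.2 to 371 CPM in control PBS, 16.4 to 424 in wheel PBS, 16.8 to 24.0 in control clodronate and 16 to 1036 CPM in wheel clodronate mice, where 16 CPM is every gene of the list at the floor. The label of the tissue was met by its markers, since 8 adipocyte genes summed to 7886 CPM or more in every mouse and all 6 mammary epithelial genes passed the filter. Markers of skeletal muscle (5 genes) differed widely between mice. They summed to 17879 CPM in control clodronate mouse 2, which had the lowest adipocyte sum, and to 8357 CPM in wheel clodronate mouse 2. The lowest sum was 16.6 CPM, in wheel PBS mouse 4. The 5 mice set apart by lymphocyte markers are called lymphocyte-rich, and the changes in each comparison are also given without them.

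Isg15 encodes a ubiquitin-like protein that is joined to other proteins after interferon. In control PBS mice its level ran from 3.73 CPM through a median of 25.0 to 54.0 CPM. In wheel PBS mice it ran from 5.02 through a median of 14.1 to 96.8 CPM. In the 5 control clodronate mice it was 14.1, 4.82, 13.4, 6.80 and 18.7 CPM, and in the 5 wheel clodronate mice 19.0, 11.8, 19.0, 30.3 and 43.7 CPM. The groups overlapped in every pair, and the 25.9-fold distance between the lowest and the highest mouse (57 and 1542 reads) lay between mice with the same liposomes, control PBS mouse 3 and wheel PBS mouse 4.

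Usp18, the protease that removes Isg15 from proteins and also damps the type I receptor, was lower throughout. It ran from 1.56 to 17.0 CPM (median 5.35) in control PBS mice and from the floor to 14.7 CPM (median 2.30) in wheel PBS mice. It was 6.35, 3.78, 4.12, 3.96 and 8.68 CPM in control clodronate mice and 3.37, 1.92, 5.59, 10.3 and 11.5 CPM in wheel clodronate mice. It was the single member whose highest mouse of all 22 was not wheel PBS mouse 4 but control PBS mouse 2.

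Ifit1 and Ifit3 encode proteins that bind viral RNA and its translation machinery. Ifit1 ran from 10.0 to 66.2 CPM (median 17.7) in control PBS mice and from 8.90 to 79.2 CPM (median 11.1) in wheel PBS mice. It was 17.6, 3.96, 11.8, 12.1 and 26.0 CPM in control clodronate mice and 20.1, 22.0, 20.2, 26.5 and 36.3 CPM in wheel clodronate mice. Among clodronate mice, only control mouse 5 lay within the wheel range, so the groups overlapped by 1 mouse. Ifit3 had medians of 17.3, 13.6, 18.2 and 24.5 CPM in control PBS, wheel PBS, control clodronate and wheel clodronate mice, and over all 22 mice it ran from 5.17 to 85.9 CPM. Both genes lie on chromosome 19, and no other transcript shared the last 400 bases of either at 97% identity or more.

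Rsad2 encodes viperin, an enzyme that makes a chain terminator of viral RNA, and it had the highest mean level of the members, 35.4 CPM over 22 mice. It ran from 17.0 to 74.8 CPM (median 30.3) in control PBS mice and from 7.81 to 132 CPM (median 16.8) in wheel PBS mice. In control clodronate mice it was 59.8, 18.1, 16.9, 32.3 and 37.4 CPM. The 5 wheel clodronate mice lay close together, at 31.9, 37.7, 30.3, 31.2 and 41.2 CPM (SD 0.19 on the log2 scale, against 1.33 in wheel PBS mice).

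Oasl2, a member of the oligoadenylate synthetase family, was the least variable member within groups (SD 0.77 on the log2 scale). It was 14.2, 11.2, 14.3, 14.8 and 15.9 CPM in control clodronate mice and 17.2, 11.8, 13.6, 15.3 and 37.9 CPM in wheel clodronate mice, and its medians were 16.2 and 15.0 CPM in control and wheel PBS mice. Its 3′ end held a repeat, which matched the 3′ ends of 65 other genes over at most 18.5% of the 400 bases. Bst2 encodes tetherin, a membrane protein that holds budding viruses on the cell. It had medians of 25.5, 17.2, 26.8 and 28.4 CPM in the 4 groups in the order above, and ran from 5.79 to 66.2 CPM over all mice. Ifi44, a cytoplasmic protein induced by interferon, had medians of 14.6, 9.37, 9.35 and 15.7 CPM and ran from 1.58 to 54.5 CPM, a 34.4-fold distance.

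Irf7 is the transcription factor that amplifies type I interferon production and is itself induced. It ran from 7.66 to 50.8 CPM (median 25.5) in control PBS mice and from 10.4 to 62.3 CPM (median 16.2) in wheel PBS mice. It was 28.0, 12.1, 17.0, 18.1 and 36.3 CPM in control clodronate mice and 27.7, 10.8, 35.0, 50.4 and 44.0 CPM in wheel clodronate mice. Cxcl10, a chemokine that draws T cells, had the lowest mean level (4.10 CPM) and was listed at the floor in 10 of 22 mice. It was above the floor in 4 of 6 control PBS mice (up to 16.9 CPM), 3 of 6 wheel PBS mice (up to 18.1 CPM), 2 of 5 control clodronate mice (up to 3.63 CPM) and 3 of 5 wheel clodronate mice (up to 5.91 CPM). The 3 wheel clodronate mice with Cxcl10 above the floor were the lymphocyte-rich ones.

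**Figure D1:**
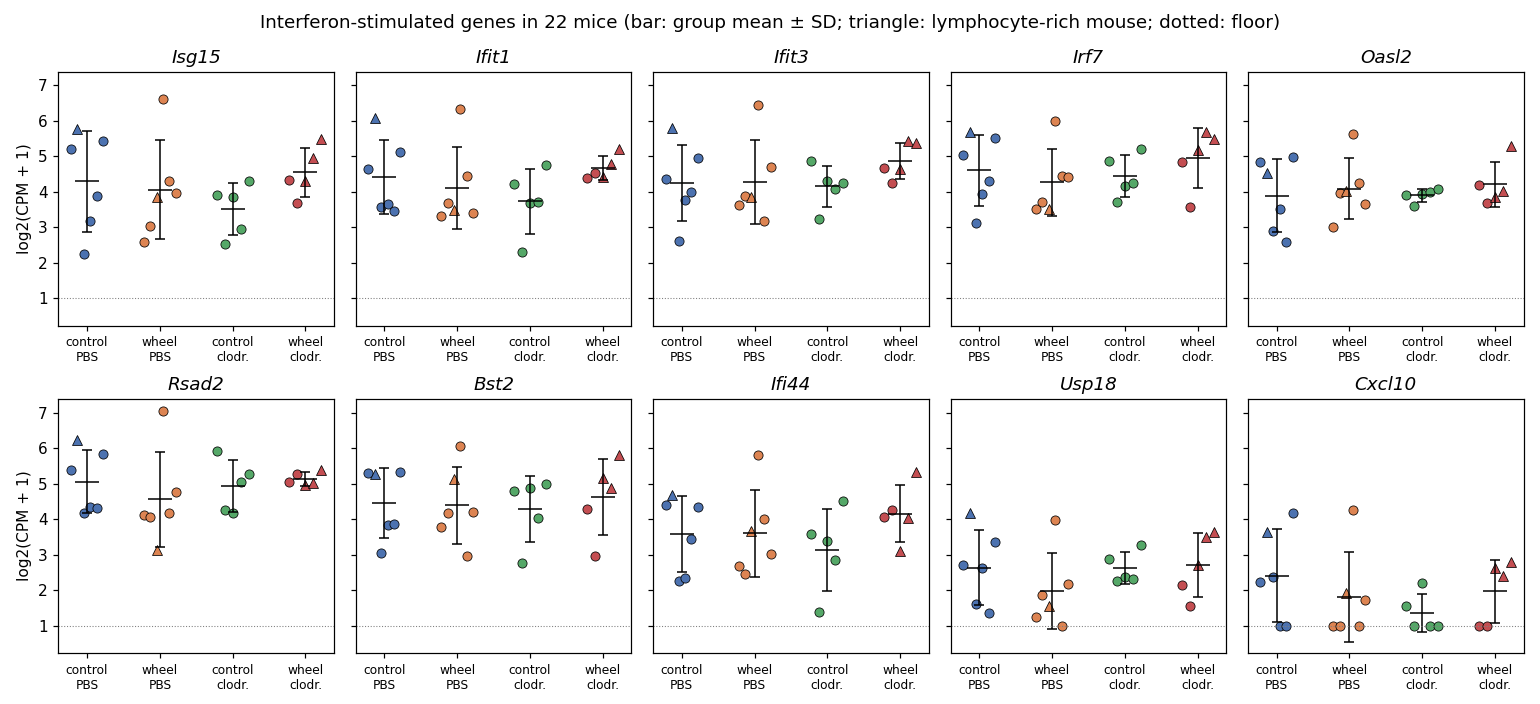
Level of each member as log2(CPM + 1) on the vertical axis, 1 point per mouse, in the 4 groups (horizontal axis). Black bars give the group mean ± SD, triangles the lymphocyte-rich mice and the dotted line the floor. Wheel PBS mouse 4 is the highest point of its group in all 10 panels, and the groups overlap in every panel.

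By mean level over 22 mice, the members stood in the order Rsad2 (35.4 CPM), Irf7 (26.6), Bst2 (25.2), Ifit3 (24.3), Isg15 (22.5), Ifit1 (22.5), Oasl2 (17.4), Ifi44 (14.8), Usp18 (5.70) and Cxcl10 (4.10). Neighbours in this order had overlapping ranges over the mice. The means of Usp18 and Cxcl10 lay above those of 36.1% and 29.1% of the genes tested, and that of Rsad2 above 81.0%. A median of 64 to 480.5 reads stood behind a member's value in the mice where it was above the floor.

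The members varied far more between mice of a group than most genes. Their SD within groups ran from 0.77 to 1.15 on the log2 scale with a median of 0.93, against a median of 0.46 over the 15138 genes tested and 0.50 over the 7863 genes of similar mean level. Of those 7863 genes, 9.45% had an SD above the members' median. The share of a member's variation over mice that lay within groups was 86.5% to 98.5% (median 89.5%), against a median of 85.0% over all genes tested.

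The members also moved together from mouse to mouse. The mean log2(CPM + 1) over the 10 members was 4.41, 5.18, 2.79, 3.22, 3.22 and 4.91 in control PBS mice 1 to 6. It was 2.89, 3.18, 3.41, 5.81, 3.38 and 3.60 in wheel PBS mice 1 to 6. In control clodronate mice 1 to 5 it was 4.05, 2.71, 3.69, 3.42 and 4.17, and in wheel clodronate mice 1 to 5 it was 3.90, 3.47, 4.10, 4.47 and 4.98. Control PBS mice fell on either side of a gap, with mice 1, 2 and 6 at 4.41 or above and mice 3, 4 and 5 at 3.22 or below, while among wheel PBS mice only mouse 4 stood high. Of the variation of this mean, 92.8% lay within groups, and the highest mouse stood 8.62-fold above the lowest.

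All 10 members were above their own median over the 22 mice in control PBS mice 1, 2 and 6, in wheel PBS mouse 4 and in wheel clodronate mice 4 and 5. None was above it in control PBS mouse 5, wheel PBS mice 1 and 2 or control clodronate mouse 2. Wheel PBS mouse 4 was the highest of all 22 mice for 9 members and was not lymphocyte-rich (1.21 for the lymphocyte list). Of the 6 mice with all members high, 3 were lymphocyte-rich.

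**Figure D2:**
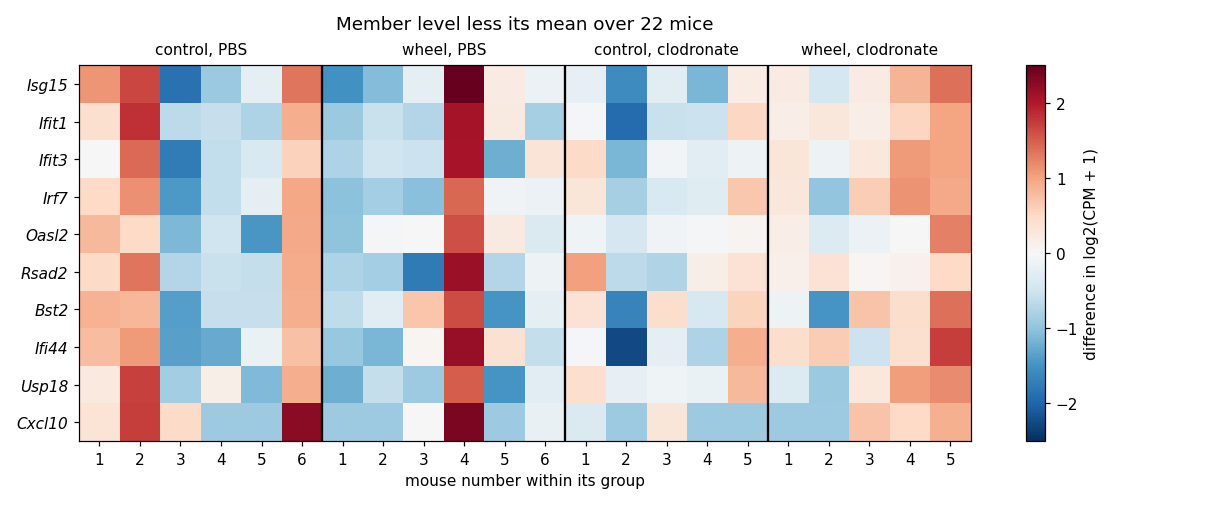
Level of each member (rows) in each mouse (columns, numbered within the 4 groups) as the difference in log2(CPM + 1) from the member's mean over 22 mice. Columns are mostly of 1 colour, red in wheel PBS mouse 4 and control PBS mice 1, 2 and 6, and blue in control PBS mouse 3 and control clodronate mouse 2.

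Over the 22 mice, Pearson's r between members on the log2 scale ran from 0.55 (Rsad2 with Bst2, Spearman's rho 0.57) to 0.90 (Isg15 with Irf7, rho 0.91), with a median of 0.75 over the 45 pairs. The median over all pairs of genes tested was 0.014, and 0.303% of those pairs reached the members' median. With each group's mean taken off, the member pairs ran from 0.55 to 0.93 (median 0.77). Without the 5 lymphocyte-rich mice they ran from 0.49 to 0.94 (median 0.75), and without the 2 mice farthest from the median of the first gene of each pair from 0.40 to 0.87 (median 0.69). These are descriptions of the same 22 libraries, which share their reads and their tissue, and carry no p.

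**Figure D3:**
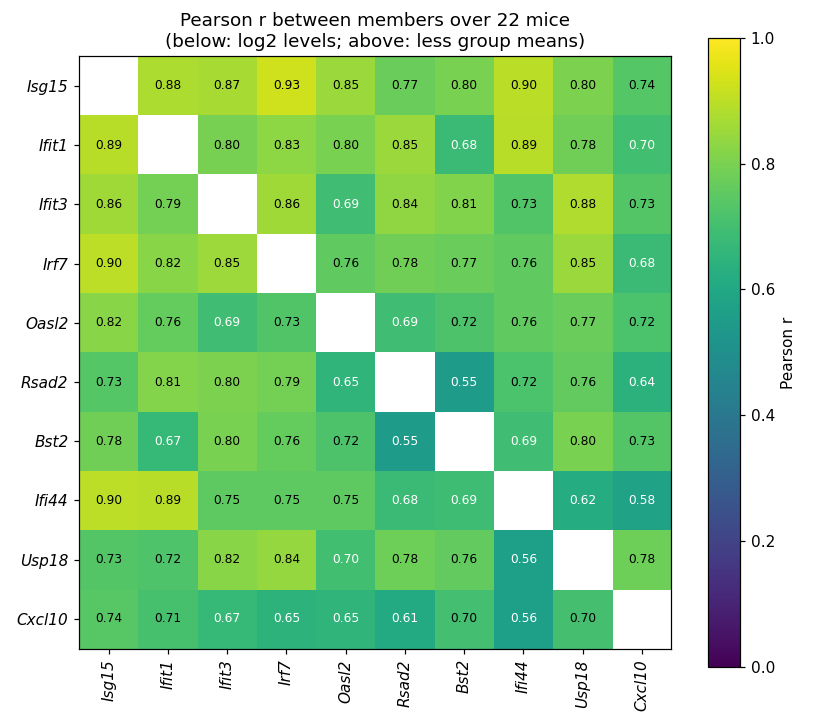
Pearson's r between members over 22 mice. Cells below the diagonal use log2(CPM + 1), and cells above it use the same values less their group means. The values run from 0.55 to 0.90 below and from 0.55 to 0.93 above.

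Outside the members, the 10 genes whose levels over the 22 mice were most like the mean of the members' standardised levels were Rnf213 (r = 0.90), Rtp4 (0.89), Herc6 (0.85), Dis3 (0.84), Ifi35 (0.83), Oasl1 (0.82), Mx1 (0.82), Zbp1 (0.81), Gdf15 (0.81) and Socs1 (0.81). Herc6 is the enzyme that attaches Isg15 in mice, Mx1 a GTPase that blocks viruses, Zbp1 a sensor of Z-form nucleic acid and Socs1 an inhibitor of Jak kinases. Of these genes, 7 of 10 belonged to the wider interferon list, whose 111 tested genes made up 0.734% of the genes compared. With group means taken off, the 10 most alike were Rtp4 (0.90), Rnf213 (0.89), Fcgr4 (0.86), Dis3 (0.86), Ifih1 (0.86), Herc6 (0.85), Steap1 (0.85), Mgarp (0.85), Cd300lf (0.84) and Ifi35 (0.84), of which 5 of 10 were also named over the 22 mice. Without the lymphocyte-rich mice 3 of 10 were (Rnf213, Gdf15 and Rtp4), and 2 of 10 were in the wider list.

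The members' level was set beside lists of cell type markers. The dividing-cell list (Mki67, Top2a, Cdk1, Ccnb1 and Birc5) gave r = 0.50 with the members' mean over the 22 mice (rho 0.48, and r = 0.47 without the 2 mice farthest on that list). The macrophage and monocyte list (12 genes) gave r = 0.51 (rho 0.52, and r = 0.50 without the 2 farthest mice). Ly6c2, a gene of this marker list, also belongs to the wider interferon list, so the marker list is not free of interferon-induced genes. Markers of plasmacytoid dendritic cells, which are known as strong makers of type I interferon, gave r = 0.10. It was -0.02 without the 2 farthest mice and -0.38 without the lymphocyte-rich mice, and 2 of the 9 genes did not pass the filter on low values. The sum of this list was highest (1050 CPM) in control clodronate mouse 2, which also had the highest muscle sum. Its mean log2(CPM + 1) was highest in the lymphocyte-rich wheel clodronate mice 3, 4 and 5 (4.22, 4.36 and 3.73). Whether the list follows these cells alone was not tested, so its r does not describe them apart from other tissue. The dividing-cell list gave r = 0.48 and the macrophage and monocyte list r = 0.47 without the lymphocyte-rich mice. The skeletal muscle list gave r = -0.41 (rho -0.43), which was -0.29 without the 2 farthest mice and -0.35 without the lymphocyte-rich mice. The mammary epithelium list gave r = -0.35 (rho -0.41), and -0.50 and -0.47 in the same subsets. The endothelium list gave r = -0.31 (rho -0.23), and -0.47 and -0.32. For the other lists r was 0.33 (NK and cytotoxic cells, 0.09 without the lymphocyte-rich mice), -0.23 (adipocytes), -0.08 (fibroblasts) and -0.06 (neutrophils). The share of reads assigned to genes gave r = -0.48, and the depth r = 0.22. The part of these in the members' levels was not tested. The lymphocyte list split the mice into clusters, so no pooled r is given for it. Over the 17 mice that were not lymphocyte-rich, where the list lay near the floor, r was 0.41.

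The summed level of the 12 macrophage and monocyte genes was 263 to 727 CPM in control PBS, 280 to 701 in wheel PBS, 287 to 429 in control clodronate and 263 to 825 CPM in wheel clodronate mice. In the wheel clodronate group the lymphocyte-rich mice had 716 to 825 CPM and the others 263 and 273 CPM. The dividing-cell list reached 231 CPM in wheel PBS mouse 4, the highest of the 22 mice. In control PBS mice 1 and 6, with 220 and 208 CPM for that list, all 10 members were above their medians. In control PBS mouse 4, with 223 CPM for that list, 1 of 10 members was above its median.

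**Figure D4:**
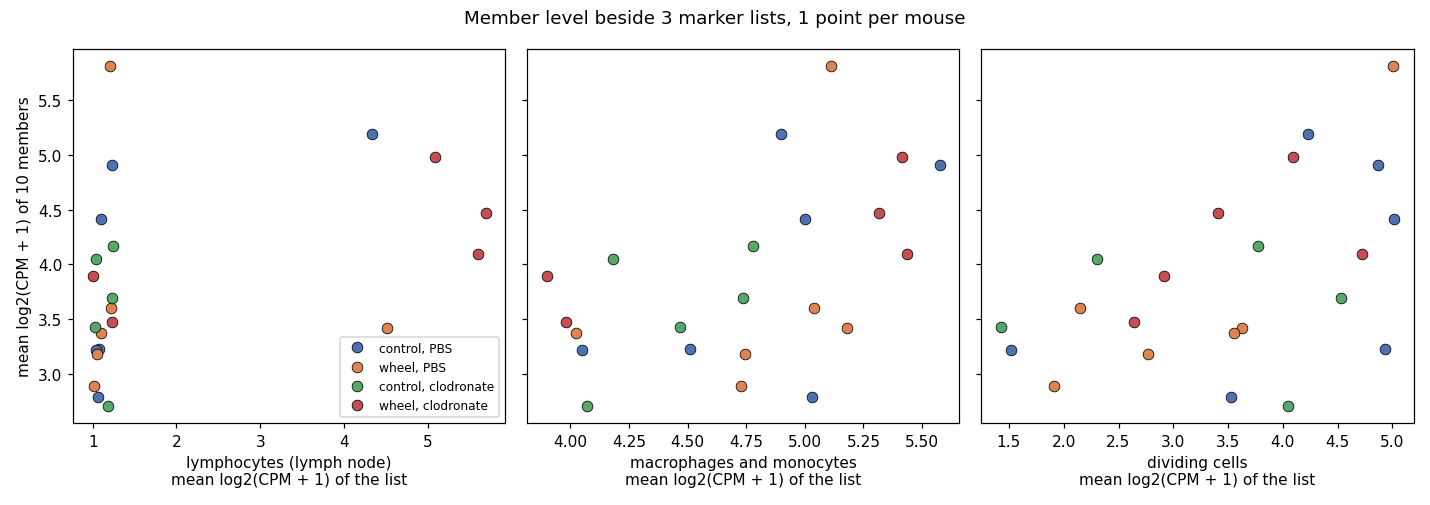
Mean log2(CPM + 1) of the 10 members (vertical axis) against the mean log2(CPM + 1) of 3 marker lists (horizontal axes), 1 point per mouse, coloured by group. The lymphocyte list separates 5 mice from 17, and wheel PBS mouse 4, the top point, lies among the 17.

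Wheel and control mice were compared first with PBS liposomes, to ask whether voluntary running changed the tissue. No member was called at an adjusted p under 0.05 (limma, Benjamini-Hochberg over 15138 genes), and 0% of all genes were called. At an unadjusted p under 0.05, 4.91% of all genes were past the threshold and none of the members. Of the members, 7 of 10 were lower in wheel mice, with a median change of -0.27 (log2), against -0.08 over all genes. The changes ran from -0.67 for Usp18 (95% interval -1.70 to 0.37, adjusted p = 0.987) to 0.20 for Oasl2 (-0.65 to 1.06, adjusted p = 0.993). The direction turned with the mice included. Without the lymphocyte-rich mice 7 of 10 members were higher in wheel mice (median 0.07), and without control PBS mouse 2 alone 6 of 10 were (median 0.04). Without wheel PBS mouse 4, which was singled out after its values were seen, all 10 members were lower (median -0.71), 3 of them had an unadjusted p under 0.05, against 6.30% of all genes in that fit, and none was called. The median was nearer 0 without control PBS mouse 1 (-0.15) or 6 (-0.08) or wheel PBS mouse 1 (-0.05), 2 (-0.12), 3 (-0.19) or 6 (-0.19). It was farther from 0 without control PBS mouse 3 (-0.54), 4 (-0.46) or 5 (-0.36) or wheel PBS mouse 5 (-0.33). Without control PBS mouse 5 all 10 members were lower too.

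With clodronate liposomes, all 10 members were higher in wheel than in control mice, with a median change of 0.56, against 0.00 over all genes. None was called, while 0.00661% of all genes were (1 gene, Gm7536), and none had an unadjusted p under 0.05, which 10.4% of all genes had. The changes ran from 0.09 for Usp18 (-1.04 to 1.23, adjusted p = 0.981) to 1.04 for Isg15 (-0.32 to 2.40, adjusted p = 0.632). Of the 5 wheel mice in this comparison, 3 were lymphocyte-rich and none of the control mice was. With the lymphocyte list's level as a covariate the median change was 0.15 and 7 of 10 members were higher, and without the lymphocyte-rich mice, which leaves 2 wheel mice, it was 0.13 with 6 of 10 higher. The changes of Usp18 were then -0.62 and -0.78. Without wheel clodronate mouse 2 the median was 0.85. It was 0.39 without wheel clodronate mouse 5, 0.41 without control clodronate mouse 2 and 0.43 without wheel clodronate mouse 4, each with 9 of 10 members higher. With only the 2 groups compared in the fit, 3 members had an unadjusted limma p under 0.05, against 8.45% of all genes. Without control clodronate mouse 5, 2 members had one, against 9.55% of all genes in that fit. None was called in either fit. The main fit shares its spread with the PBS groups. The SD of the members' mean level was 0.58 (control) and 0.57 (wheel) with clodronate. With PBS it was 1.01 (control) and 1.06 (wheel).

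The effect of clodronate was compared within each activity. In control mice 9 of 10 members were lower with clodronate, with a median change of -0.16 against -0.10 over all genes. None was called, and 0% of all genes were, while 6.99% of all genes and no member had an unadjusted p under 0.05. The changes ran from -1.05 for Cxcl10 (-2.28 to 0.18, adjusted p = 0.750), which was at the floor in 3 of 5 control clodronate mice, to 0.02 for Oasl2 (-0.88 to 0.92, adjusted p = 0.995). The direction turned here too, with 6 of 10 members higher and a median of 0.03 without the lymphocyte-rich mice, and likewise 6 of 10 higher without control PBS mouse 2 (median 0.03) or 6 (0.02) or control clodronate mouse 2 (0.04). The median was -0.07 without control PBS mouse 1, and lay between -0.45 and -0.28 without control PBS mouse 3, 4 or 5 or control clodronate mouse 1 or 5.

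In wheel mice all 10 members were higher with clodronate, with a median change of 0.55 against 0.00 over all genes. None was called, against 0.00661% of all genes (again Gm7536), and none had an unadjusted p under 0.05, which 11.6% of all genes had. The changes ran from 0.12 for Oasl2 (-0.78 to 1.02, adjusted p = 0.950) to 0.74 for Usp18 (-0.35 to 1.82, adjusted p = 0.634). Here the result rested on a few mice. Without the lymphocyte-rich mice the median change was -0.13, with 4 of 10 members higher, and without wheel clodronate mouse 5 alone it was 0.34, with 7 of 10 higher. Without wheel PBS mouse 4 it was 1.00 and 5 members had an unadjusted p under 0.05, against 12.3% of all genes in that fit, with none called.

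Averaged over activity, the members' changes with clodronate had a median of 0.06 against -0.04 over all genes, and 7 of 10 were higher. No member was called, against 0.205% of all genes (31 genes, all lower with clodronate), and no member had an unadjusted p under 0.05, which 10.4% of all genes had. The changes ran from -0.45 for Cxcl10 (-1.32 to 0.42, adjusted p = 0.740) to 0.36 for Usp18 (-0.41 to 1.12, adjusted p = 0.771). Without the lymphocyte-rich mice the median was -0.04 with 4 of 10 members higher, and 0 genes were called over all genes (12.7% had an unadjusted p under 0.05). The median also turned, with 4 of 10 members higher, without control PBS mouse 3 (-0.05), wheel PBS mouse 1 (-0.03) or wheel clodronate mouse 5 (-0.08), and it reached 0.25 without wheel PBS mouse 4 or control clodronate mouse 2.

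The interaction asks whether the change with the wheel differed between liposomes. All 10 members were on the same side, higher, with a median of 0.80 against 0.09 over all genes. None was called, as for all genes (0%), and no member had an unadjusted p under 0.05, which 7.58% of all genes had. The values ran from 0.10 for Oasl2 (-1.17 to 1.37, adjusted p = 0.995) to 1.27 for Isg15 (-0.57 to 3.11, adjusted p = 0.779). The median was -0.05, with 5 of 10 members higher, without the lymphocyte-rich mice. It was 0.38 with the lymphocyte list's level as a covariate (8 of 10 higher) and 0.55 without control PBS mouse 2 (9 of 10 higher). Without wheel PBS mouse 4 it was 1.20, and 4 members had an unadjusted p under 0.05, against 8.73% of all genes in that fit, with none called. The 4 pairwise comparisons, the average and the interaction share mice, so their members' changes are not independent of each other.

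**Figure D5:**
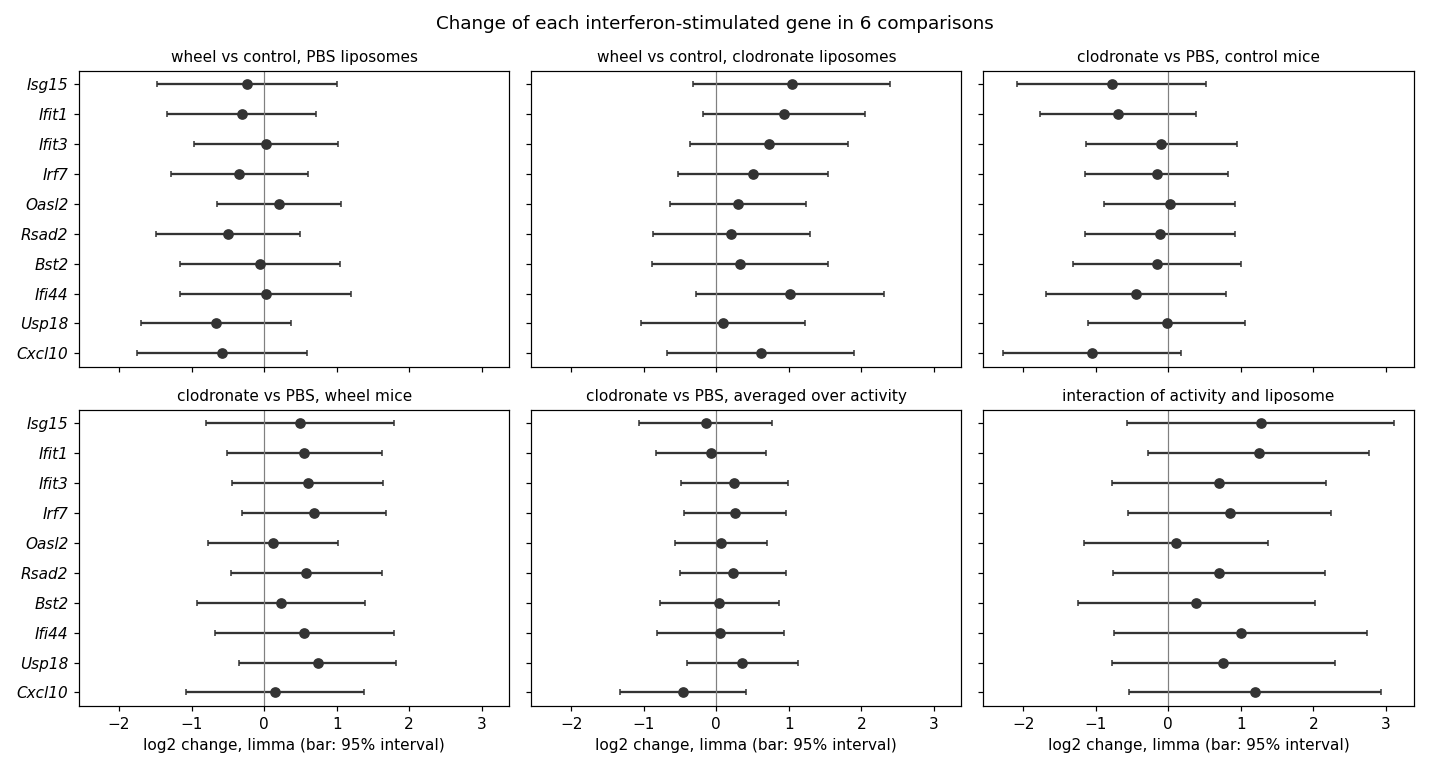
Log2 change of each member (horizontal axis) in the 6 comparisons, from limma over all 22 mice, with 95% intervals. Every interval includes 0, and the widest are those of the interaction.

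The width of these intervals sets what could be seen. For the members, the standard errors of the pairwise changes ran from 0.41 to 0.66 on the log2 scale, and the intervals reached from -2.28 to 2.40. Exact two-sided permutation of the mice for each member in the 4 pairwise comparisons gave a lowest unadjusted p of 0.0556 and a lowest adjusted p of 0.934 over the 40 tests.

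The wider interferon list holds 142 other genes of the pathway, in 8 roles. Of the 18 ligand genes, 16 were at the floor in all mice. Ifnk was above it in 2 mice and Ifng in 1, at up to 2.57 and 1.28 CPM, and no ligand passed the filter on low values. All 6 receptor genes were tested, led by Ifngr1 (mean 93.5 CPM), Ifnar2 (22.0) and Il10rb (19.5). The 11 kinases and transcription factors included Jak1 (209 CPM) and Irf2 (63.9), and the 14 tested sensors and adaptors were led by Ddx58 (23.7), Myd88 (20.5) and Ifih1 (20.3).

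The 54 tested antiviral and other interferon-induced genes were led by Ly6e (460 CPM), Ifi27l2a (451) and Ifitm3 (290), whose means all lay above that of every member. The 3 enzymes that join Isg15 to proteins were Uba7 (17.5 CPM), Herc6 (7.67) and Ube2l6 (3.53). Of the genes induced mainly by interferon gamma, 16 were tested, led by the GTPases Iigp1 (87.1 CPM), Gbp7 (56.1) and Gbp2 (36.3). The 7 tested negative regulators were led by Samhd1 (73.4 CPM), Ptpn6 (33.5) and Pias1 (20.6).

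Likeness to the members over the 22 mice differed by role. The median r with the members' standardised mean was 0.63 for the antiviral genes, 0.59 for the negative regulators, 0.56 for the genes induced by interferon gamma and for the conjugating enzymes, 0.54 for the sensors, 0.45 for the kinases and transcription factors and 0.15 for the receptors. Over the whole list it was 0.59, with 106 of 111 genes above 0, against a median of 0.035 over all genes compared. Among the named genes, Ifih1 had r = 0.78, while Ifngr1 had 0.02.

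No gene of the wider list was called in any of the 6 comparisons. Between wheel and control mice with clodronate liposomes, 25 of its 111 genes (22.5%) had an unadjusted p under 0.05, against 10.4% of all genes. All 25 were higher in wheel mice, and the list's lowest adjusted p was 0.248. Ptpn6, a phosphatase of blood cells, averaged 74.2 CPM in wheel and 13.1 CPM in control clodronate mice, a log2 change of 1.87 (adjusted p = 0.272). With the lymphocyte level as a covariate, 2 of the 111 genes had an unadjusted p under 0.05, against 5.17% of all genes. Without the lymphocyte-rich mice 4 of 109 had one (3.67%, against 5.89% of all genes), all lower in wheel mice. In the other comparisons the share of the list with an unadjusted p under 0.05 was 1.80% for wheel against control mice with PBS (4.91% of all genes), 3.60% and 9.91% for clodronate in control and wheel mice (6.99% and 11.6%), 3.60% for the average (10.4%) and 9.01% for the interaction (7.58%).

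The positions of the members, in the GENCODE M21 annotation of GRCm38, matter for what their reads can hold. Irf7 (chromosome 7, 141262706 to 141266481, minus strand) overlaps Phrf1 on the plus strand, Cxcl10 (chromosome 5, 92346638 to 92348889, minus strand) overlaps Art3 and Usp18 (chromosome 6, 121245906 to 121270917, plus strand) overlaps Gm44148. Whether the counting used strand is not given in the sources used here, so whether reads of the antisense partners entered these values is not known. The overlaps are of whole gene spans, and overlap at the 3′ ends, which the libraries read, was not examined. The other 7 members overlap no annotated gene. They are Isg15 (chromosome 4, 156199424 to 156200818), Ifit1 (chromosome 19, 34640871 to 34650009), Ifit3 (chromosome 19, 34583531 to 34588731), Oasl2 (chromosome 5, 114896936 to 114912234), Rsad2 (chromosome 12, 26442746 to 26456452), Bst2 (chromosome 8, 71534255 to 71537456) and Ifi44 (chromosome 3, 151730922 to 151749960).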

How the data were processed

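RNA from the engrafted mammary gland of 22 mice was sequenced as QuantSeq 3′ libraries, and the sample labels, which give a single experiment, set the groups and the replicate numbers. Reads were aligned to the mouse genome by the authors (STAR 2.5.3a and GRCm38 per the submitters' processing notes; the counting tool and its annotation are not given in the sources used here) and the deposited signal is a CPM for each gene, in which any value under 1 was raised to 1. The deposited total includes 4 rows that name no gene (35.4% to 42.6% of reads). Above the floor, 100% of the low values were whole multiples of 1 read (tolerance 0.1 read), which gives the depth, but reads of genes at the floor are lost, so no count test was used. Where a symbol had several rows (106 symbols), the one with the highest mean was kept.

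All 15138 genes that exceeded the floor in 5 or more mice were fitted on log2(CPM + 1), with 4 group means, a variance trend and Benjamini-Hochberg adjustment (limma 3.58.1, R 4.3.3). A fold on this scale understates changes of genes near the floor. The rule for named genes was to give every member, per comparison those with the lowest and highest change and any with an unadjusted p under 0.05, in each role of the wider list the 3 genes with the highest mean, and the 10 genes most like the members over mice. One gene that the rule names in the wider list is not reported here. Gm7536 and the wider-list genes Ifih1, Ifngr1 and Ptpn6 beside their later values were chosen for naming after their values were seen. Members and lists were chosen with earlier results of these data known. The limma step was tested on simulated libraries. Alternatives were pseudocounts of 0.1, 5 and none, other filters (none, or a mean of at least 5 CPM), other scalings, only the groups compared, no variance trend, a replicate block, leaving out each mouse, and the lymphocyte level as a covariate or without the lymphocyte-rich mice. The counts of the wider list under the last pair were added after seeing the data. No sample labels say which mice share a litter or cage, and p-values set differences between groups against the variation between these mice.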

Additional observations from a re-analysis of the deposited data

Results flagged for a closer look

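Cxcl10 in wheel PBS mouse 4 stood apart from the other 5 mice of its group, at 4.26 on the log2(CPM + 1) scale (18.1 CPM), with the next mouse at 1.92 and 3 of the 6 mice at the floor. The limit was that of Dixon's ratio, the gap to the next mouse over the range of the group (0.625 for 6 mice and 0.71 for 5). It was the single value past this limit among the 40 combinations of member and group examined. About 2 would pass by chance if values were normally distributed and the combinations independent, which they are not. The floor also shortens the range of Cxcl10, so the flag does not show a trait particular to this gene. The other 9 members were also highest in this mouse within its group, without passing the same limit. No member's interaction of activity and liposome passed an adjusted p of 0.05.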

How the results depend on the processing

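No member was called in any of the 6 comparisons under the alternatives run (12 for the pairwise comparisons, 11 for the average and the interaction) or with each of the 22 mice left out in turn. The medians of the members' changes moved by at most 0.849, just under the pooled SD of the members' mean level within groups (0.860), a wide limit under which several medians changed sign. Over the alternatives they ran from -0.28 to 0.07 and from 0.13 to 0.64 (wheel against control with PBS and with clodronate liposomes), from -0.16 to 0.03 and from -0.13 to 0.62 (clodronate against PBS in control and in wheel mice), from -0.04 to 0.12 (average) and from -0.05 to 0.91 (interaction). With a mouse left out they ran from -0.71 to 0.04, 0.39 to 0.85, -0.45 to 0.04, 0.34 to 1.00, -0.08 to 0.25 and 0.55 to 1.20 in the same order.

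Among the members named for the lowest or highest change, none of which was called, some changed sign. Usp18 in wheel against control mice with clodronate was -0.621 with the lymphocyte covariate and -0.777 without the lymphocyte-rich mice, and with a mouse left out it ran from -0.140 to 0.383. Usp18 with clodronate in wheel mice was -0.214 without the lymphocyte-rich mice. Oasl2 in wheel against control mice with PBS ran from -0.105 to 0.420 with a mouse left out. Oasl2 with clodronate in control mice was -0.0368 with a pseudocount of 5 and ran from -0.245 to 0.235 with a mouse left out. Oasl2 with clodronate in wheel mice was -0.0848 with the covariate and -0.168 without the lymphocyte-rich mice, and ran from -0.149 to 0.427 with a mouse left out. Its interaction was -0.0110 with upper-quartile scaling, -0.152 with the covariate and -0.312 without those mice, and ran from -0.166 to 0.410 with a mouse left out. The cause was not tested.

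The replicate numbers are shared by different mice. Deviations of same-numbered mice from their group means gave a mean r of -0.08 to 0.18 over 4 pairs of groups. Single pairs of mice ran from -0.39 (wheel PBS and wheel clodronate 5) to 0.52 (control and wheel clodronate 2). No r of differently numbered mice was set beside these. Whether same-numbered mice share more than a number was therefore not tested. With the replicate block, no member was called, the medians were -0.27, 0.56, -0.07, 0.59, 0.12 and 0.80 in the order above, and the calls over all genes averaged over activity fell from 31 to 11.

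Calls over all genes were few and unstable, 0 to 54 for the average over activity across alternatives and 12 to 146 with a mouse left out, 0 to 240 for wheel against control mice with clodronate with a mouse left out, 0 to 51 and 0 to 38 for clodronate in wheel and control mice. Depth limits Cxcl10 and Usp18 most, since up to 13 to 20 reads, depending on the library, are listed as the floor.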
